A study of Mus musculus with 80 samples.

Results

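The mouse major histocompatibility complex, H2, was described through the H3K27me3 peaks that lay on its genes in uterine fibroblasts. The members were all protein-coding genes of chromosome 17 whose symbol starts with H2- in the mm10 annotation. There were 38 such symbols, of which 35 were measured, out of 21774 protein-coding genes in all. H2-Q8, H2-Q9 and H2-T18 were not measured, because their annotated positions follow a restart of the position order and were taken to lie on patches or alternate scaffolds. The 35 genes comprised 2 classical class I genes, 9 class II genes, 6 H2-Q genes, 5 H2-T genes, 12 H2-M genes and H2-Ke6, a steroid dehydrogenase gene that carries the H2 prefix only by position. The genes were proposed because H2-M1 and H2-M11 differed between conditional knockout and control peaks in these same lists. Values from that contrast are therefore given as a description. Calls from a fit across all genes are counted beside their share over all genes, and nothing is read from them.

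H3K27me3, trimethylation of lysine 27 on histone H3, is laid down by Polycomb repressive complex 2 and removed by demethylases that include KDM6B. It often forms broad domains over genes that a cell type keeps silent. Classical class I molecules present peptides from inside the cell on nearly all cells, class II molecules present ingested peptides mainly on professional antigen-presenting cells, and the H2-Q, H2-T and H2-M genes encode non-classical class I molecules with narrower expression. In mice, H2-M1, H2-M9, H2-M11 and the H2-M10 genes are known for expression in sensory neurons of the vomeronasal organ, beside V2R pheromone receptors.

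The mark was mapped by CUT&RUN, which cuts out antibody-bound chromatin with a tethered nuclease, in fibroblasts purified with magnetic beads from enzymatically digested mouse uterus. Conditional knockout females (cKO) carried Kdm6b f/f together with a Cre transgene. Pgr-Cre recombines where the progesterone receptor is expressed, and Pdgfra-Cre recombines mainly in fibroblasts. Their controls were Kdm6b f/f females, and all of these females were mated with B6 males. The Pgr-Cre cKO and their controls gave inter-implantation tissue (IIS) at GD5.5, GD8.5 and GD14.5 of gestation and implantation-site tissue (IS) at GD14.5 and again at GD18.5. The Pdgfra-Cre cKO and their controls gave IS on GD14.5. A separate set of B6CBAF1/J females gave naturally mated GD5.5 IIS, uterus at GD5.5 following a vasectomized male, uterus of non-pregnant females after 3 days of progesterone, and GD0.5 uterus. Each group had 1 peak list that pooled 3 samples, giving 12 lists in 6 cKO and control pairs and 4 B6CBAF1/J lists. A further Pgr-Cre cKO GD14.5 IS library is titled as an input but carries the H3K27me3 antibody in its label, and it was counted with the inputs. A list has no replicate values, and its read depth is unknown. In pooled material, fewer marked cells and less mark per cell cannot be told apart. Ages and the background strain of the Kdm6b mice are not given in the labels, and these peaks do not report whether Kdm6b was deleted.

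Coverage below is the share, in percent, of a window from 2 kb before to 2 kb after the gene that merged peaks occupied, and a difference is in percentage points, cKO minus control. The Kdm6b lists held 221350 to 287629 peaks over 609.3 to 739.9 Mb, and the B6CBAF1/J lists 131900 to 167542 peaks over 680.5 to 704.4 Mb. The covered length was larger in the cKO list in 5 of 6 pairs, the exception being GD14.5 IIS. The number of peaks that reached a -log10 q of 2 was lower in cKO in those same 5 pairs, at 144 to 492 in cKO lists, against 494 to 1837 in control lists, while the GD14.5 IIS pair had 477 in cKO and 390 in control. Peaks were low in general, with a median fold over background of 1.12 to 1.15 in the Kdm6b lists and 1.09 in the B6CBAF1/J lists. By their peak names, the lists of the Pgr-Cre GD14.5 IS pair were called in a separate round, so mean coverage differences of single H2 genes and stretches without that pair are given where the sign turns or the value moves by over 1.5 times. Of 10 fibroblast marker genes, 8 had no peak in any of the 16 lists, and the median coverage was 0% in both cKO and control lists. Of all 21774 protein-coding genes, 7019 had no peak in any list. Median coverage of the marker genes of other cells was 94.6% in cKO and 93.7% in control lists for epithelial cells, 58.6% and 52.9% for immune cells, 20% and 13.1% for endothelial cells, 18.2% and 20.6% for smooth muscle, and 49.8% and 47.6% for trophoblast. Of the tested markers, 1 of 6 epithelial and 1 of 5 endothelial genes were called higher in cKO and none was called lower. Of all tested genes, 8.67% were called higher and 8.44% lower, and nothing is read from these marker counts. Whether other cells took part in any value below was not tested.

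The 35 genes fell into blocks of high and absent coverage that were shared by nearly all lists. Their median coverage was 51.3% in cKO and 62.3% in control lists, against 3.01% and 3.02% over all protein-coding genes. The median of the differences was 0 both over the 35 genes and over all genes. Of the 35 genes, 7 had no peak within their window in any of the 16 lists, namely H2-Ke6, H2-Q4, H2-T22, H2-T23, H2-T24, H2-M10.2 and H2-M2. Over all protein-coding genes, 7019 of 21774 had none. In the limma fit over the 6 pairs, with Benjamini-Hochberg adjustment over 9845 genes, 23 of the 35 genes had enough coverage to be tested. Of these, 4 were called lower and 0 higher in cKO, where 8.44% of all tested genes were called lower and 8.67% higher. The limma fit gave 6 of the 23 genes an unadjusted p under 0.05, where 32.7% of all tested genes had one. Since the genes were proposed from this contrast, nothing is read from the count. The 4 genes were H2-M1, H2-M11, H2-M9 and H2-M10.4, and all are vomeronasal class I genes. No member was called when each list was cut to the same covered length by taking its most significant peaks first, or when only peaks with a -log10 p of at least 1 were kept. Of all tested genes, 5.03% were called lower and 3.31% higher in the first case, and 0.577% and 0.746% in the other. Without the Pgr-Cre GD14.5 IS pair, H2-M11 and H2-M1 were called lower and H2-Aa was called higher. In that fit 4.16% of all tested genes were called lower and 4.65% higher. H2-M11 and H2-M1 alone were likewise called lower without the GD8.5 IIS, the GD14.5 IIS or the GD18.5 IS pair. There 3.47%, 3.76% and 4.34% of all tested genes were called lower, in that order. Without the GD5.5 IIS pair the 4 lower calls were H2-M11, H2-M9, H2-M1 and H2-M10.6, and without the Pdgfra-Cre pair they were those of the full fit. The shares of all tested genes called lower were 5.45% and 8.21% in these 2 fits.

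**Figure D1:**
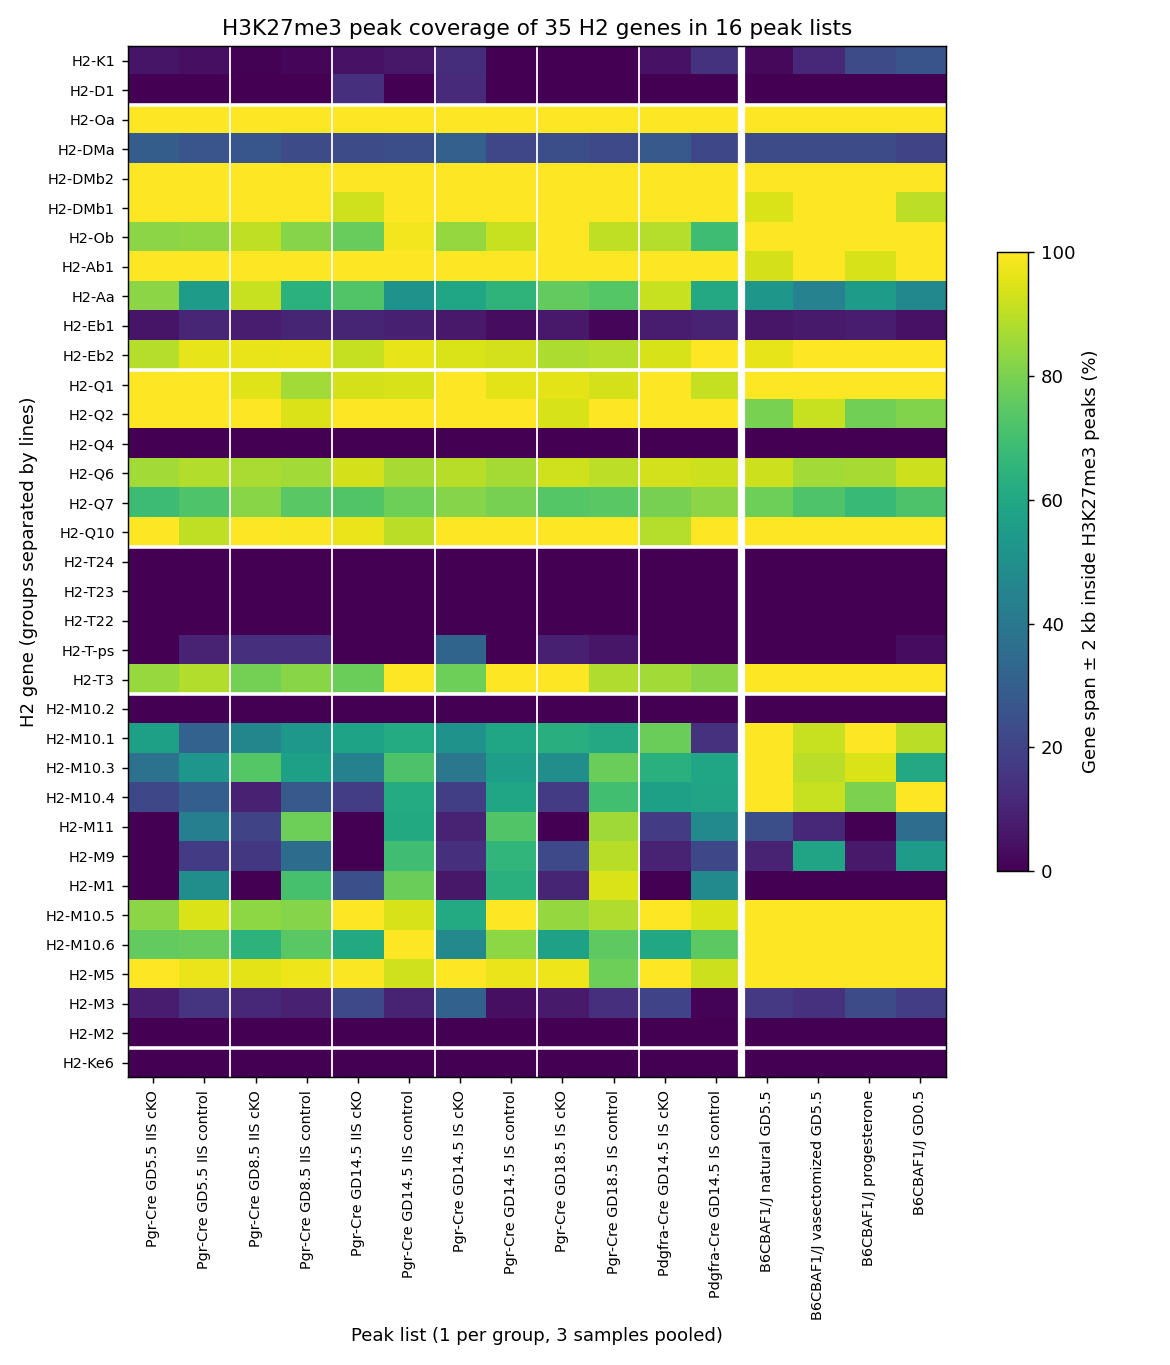
Coverage of the 35 H2 genes (rows, grouped by class and ordered by position) in the 16 peak lists (columns, each cKO list left of its control, B6CBAF1/J lists at the right), with colour from 0% (dark) to 100% (yellow). Most rows keep 1 colour across the Kdm6b lists, while H2-M11, H2-M9 and H2-M1 are dark in cKO columns and brighter in control columns.

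H2-M1 was the member with the largest difference. It encodes a vomeronasal class I heavy chain, and its span is chr17:36669030-36672197. Its coverage in cKO lists was 0% in GD5.5 IIS, 0% in GD8.5 IIS, 24.5% in GD14.5 IIS, 6.45% in GD14.5 IS, 10.21% in GD18.5 IS and 0% in Pdgfra-Cre GD14.5 IS. In the control lists, in the same order, it was 49.4%, 71.0%, 77.6%, 63.3%, 94.5% and 47.6%. Every cKO list was below every control list. No share of all genes with such a separation is given, and nothing is read from it. The means were 6.86% in cKO and 67.3% in control lists, a difference of -60.4 ± 14.4 points (SD over 6 pairs). All 4 B6CBAF1/J lists were at 0%. The peaks there were small and low. The highest fold of a peak at H2-M1 was 1.22 in cKO and 1.29 in control lists, and no -log10 p exceeded 1.07. The widest peak was 866 bp in cKO and 7399 bp in control lists. At equal covered length the difference was -24.5 points, with 3 of 6 pairs lower and none higher.

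H2-M11, at chr17:36547075-36550273, is a vomeronasal class I gene 122.0 kb below H2-M1 on the chromosome. Its coverage in cKO lists was 0% in GD5.5 IIS, 20.6% in GD8.5 IIS, 0% in GD14.5 IIS, 9.88% in GD14.5 IS, 0% in GD18.5 IS and 17.8% in Pdgfra-Cre GD14.5 IS. Control lists, in that order, had 43.05%, 77.8%, 60.7%, 72.7%, 85.8% and 47.8%. The cKO and control ranges did not overlap, again given without a share over all genes. The means were 8.05% in cKO and 64.6% in control lists, a difference of -56.6 ± 19 points. Peaks were again low, with a highest fold of 1.23 in cKO and 1.21 in control lists. At equal covered length the difference was -16.6 points, lower in 3 pairs and higher in 1.

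H2-M9, at chr17:36639285-36642663, lies between them, 29.7 kb from H2-M1. Its cKO coverage was 0% in GD5.5 IIS, 16.3% in GD8.5 IIS, 0% in GD14.5 IIS, 13.4% in GD14.5 IS, 22.2% in GD18.5 IS and 10.14% in Pdgfra-Cre GD14.5 IS. Control coverage, in that order, was 17.6%, 35.5%, 69.5%, 66.0%, 89.3% and 21.6%. The cKO list was lower in each pair, but the 2 ranges overlapped, since the GD5.5 IIS and Pdgfra-Cre controls were below the highest cKO list. The means were 10.35% in cKO and 49.9% in control lists, a difference of -39.6 ± 26.5 points. It shrank to -3.02 points at equal covered length, where 1 pair differed.

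H2-M10.4, at chr17:36458917-36462329, had a smaller difference. Its cKO coverage was 21.6%, 9.19%, 18.3%, 18.51%, 17.6% and 56.7% in the same order of lists, against 29.7%, 28.1%, 61.5%, 59.1%, 69.9% and 58.4% in controls. The Pdgfra-Cre cKO list stood far above the other 5 cKO lists and next to its own control. The means were 23.7% in cKO and 51.1% in control lists, a difference of -27.5 ± 20.8 points. Over the gene span without flanks it was -14.8 points, with 3 pairs lower and 3 higher, and at equal covered length -17.7 points, with 5 pairs lower and 0 higher.

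**Figure D2:**
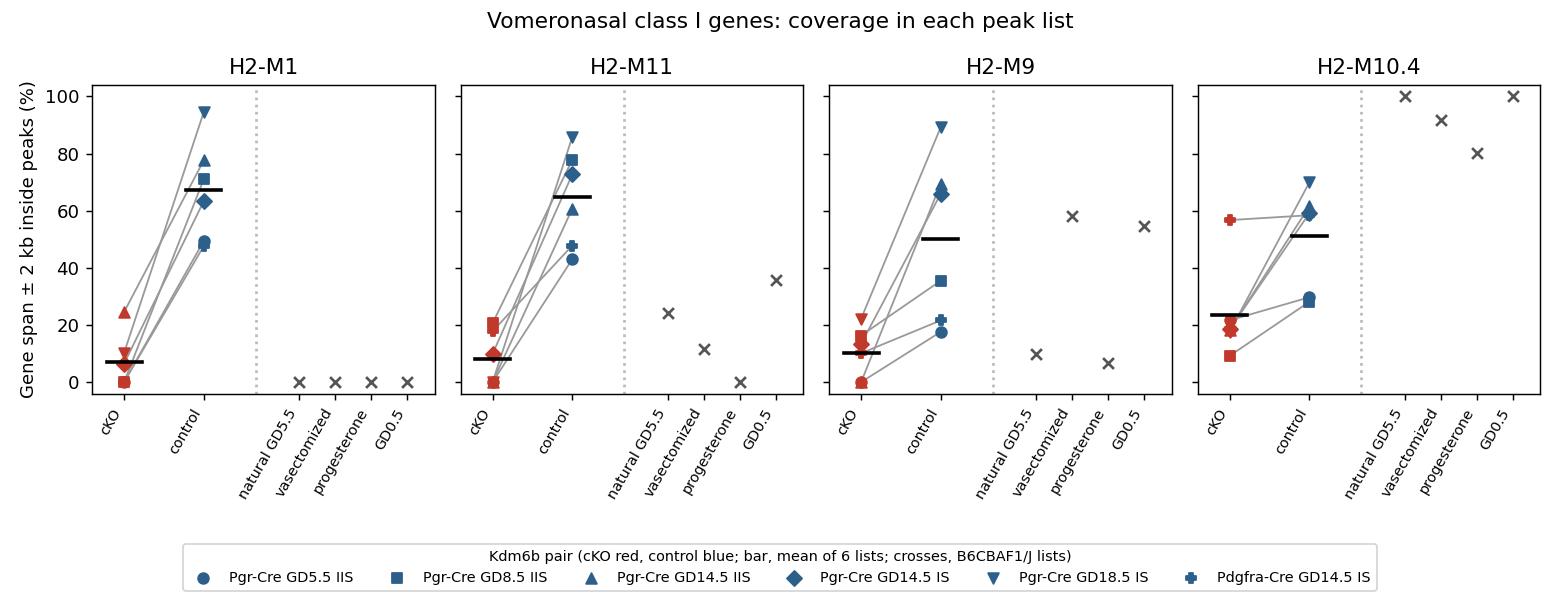
Coverage (%) of H2-M1, H2-M11, H2-M9 and H2-M10.4 in each peak list, with cKO lists in red left of their controls in blue, grey lines joining pairs, black bars for the mean of 6 lists and crosses for the 4 B6CBAF1/J lists. The H2-M1 and H2-M11 cKO lists lie at 24.5% or below and their controls at 43.05% or above, while the H2-M9 and H2-M10.4 groups overlap.

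The promoters of H2-M1, H2-M9 and H2-M11 are shown because the 3 genes had the largest differences and form 1 stretch. The sequences are from RefSeq, build GRCm38.p6, from 250 bases before to 50 bases after the annotated start. Capitals mark matches, on either strand, to 3 motifs. They are the CCAAT box, the TATAAA box and the kappa-B core GGATTCC, and no marked matches overlapped in the sequences shown.
H2-M1 (chr17:36672148-36672447, minus strand): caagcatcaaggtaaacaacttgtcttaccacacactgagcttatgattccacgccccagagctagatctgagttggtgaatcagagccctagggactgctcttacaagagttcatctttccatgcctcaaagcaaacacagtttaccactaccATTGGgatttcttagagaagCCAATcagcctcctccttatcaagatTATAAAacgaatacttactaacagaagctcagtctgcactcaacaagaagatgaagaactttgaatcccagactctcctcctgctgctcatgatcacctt
H2-M9 (chr17:36642614-36642913, minus strand): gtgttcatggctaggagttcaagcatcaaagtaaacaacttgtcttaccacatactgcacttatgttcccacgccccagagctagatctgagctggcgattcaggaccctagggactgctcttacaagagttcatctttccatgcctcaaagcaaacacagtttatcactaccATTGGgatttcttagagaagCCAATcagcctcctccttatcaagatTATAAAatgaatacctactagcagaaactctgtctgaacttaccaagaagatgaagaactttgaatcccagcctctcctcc
H2-M11 (chr17:36546825-36547124, plus strand): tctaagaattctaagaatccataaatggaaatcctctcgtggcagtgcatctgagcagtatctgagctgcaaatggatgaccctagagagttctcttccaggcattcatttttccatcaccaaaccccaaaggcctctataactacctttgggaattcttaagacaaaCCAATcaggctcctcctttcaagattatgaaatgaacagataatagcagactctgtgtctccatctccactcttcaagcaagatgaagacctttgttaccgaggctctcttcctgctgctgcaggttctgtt
H2-M1 and H2-M9 were near copies, with 92.5% identity over 281 aligned bases and the same CCAAT pair and TATA box. H2-M11 matched H2-M9 at 75.2% over 270 bases, held a single CCAAT and no TATAAA. Reads from such copies can be hard to assign, and how the authors treated reads with several matches is not given. Each of the 3 promoters held 2 CpG dinucleotides, against a median of 7 over 27025 RefSeq promoters. CCAAT was found in 37.9% of those promoters and TATAAA in 14.2%. The start site of H2-M1 lay inside a peak in 1 of 6 cKO and 4 of 6 control lists. For both H2-M9 and H2-M11 this was 1 of 6 cKO and 5 of 6 control lists. In a window of 2 kb on either side of the start site the differences were -66.3 points for H2-M1, -50.0 for H2-M9 and -49.4 for H2-M11.

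The other vomeronasal H2-M genes differed less or not in 1 direction. H2-M10.6, at chr17:36812175-36815566, was lower in cKO in each of the 6 pairs, with 47.1% to 76.1% in cKO and 74.3% to 100% in control lists. Its means were 60.9% in cKO and 80.7% in control lists, a difference of -19.8 ± 15.1 points. It was not called in the fit over 6 pairs, but was called lower with each pair's median subtracted, in an unpaired fit and without the GD5.5 IIS pair. At equal covered length the difference was -31.3 points, with 4 pairs lower and 2 higher. H2-M10.5 averaged 85.2% in cKO and 92.1% in control lists, a difference of -6.9 ± 17 points, with 3 pairs lower and 3 higher, and of -0.541 points without the Pgr-Cre GD14.5 IS pair. With only peaks of -log10 p of at least 1 it was -50.2 points. H2-M10.3 averaged 51.3% in cKO and 62.3% in control lists, lower in 4 pairs. H2-M10.1 averaged 58.7% in cKO and 46.6% in control lists and a difference of 12.2 ± 28 points. The Pdgfra-Cre pair had 77.7% in cKO and 14.2% in control, and without it the mean difference was 1.9 points. At equal covered length the sign turned, with a difference of -7.94 points, 4 pairs lower and 2 higher. H2-M10.2 had no peak in any list. Over the 9 vomeronasal genes the median difference was -19.8 points, and over all 12 H2-M genes -8.98 points, beside 0 over all genes.

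The 3 remaining H2-M genes were not called. H2-M5, at chr17:36983785-36997955, was covered nearly throughout, at 95.9% to 100% in cKO and 77.8% to 97.6% in control lists, with means of 98.8% in cKO and 92.4% in control lists. H2-M3, which presents N-formylated peptides of bacterial and mitochondrial origin, averaged 16.6% in cKO and 8.71% in control lists, a difference of 7.89 ± 14.1 points with 4 pairs higher, and of 4.07 points without the Pgr-Cre GD14.5 IS pair. H2-M2 had no peak in any list.

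The lower coverage in cKO extended beyond the gene windows into the DNA between them. No other protein-coding gene starts in the 527.9 kb between the starts of H2-M10.2 and H2-M10.6. The 125.1 kb from H2-M11 to the end of H2-M1 was covered by 13.0% to 22.1% in cKO lists and by 30.7% to 61.3% in control lists. The means were 17.9% in cKO and 45% in control lists, a difference of -27.1 ± 12.9 points, lower in 6 of 6 pairs. This stretch held 10 to 22 peaks in cKO lists, against 26 to 33 in control lists. The smallest pair difference was that of Pdgfra-Cre, with 22.1% in cKO and 30.7% in control. The flanking blocks had means of 64.7% in cKO and 64.0% in control lists from H2-M10.2 to H2-M10.4, and of 87.4% in cKO and 88.8% in control lists from H2-M10.5 to H2-M10.6, where the difference of -1.43 points was -0.52 without the Pgr-Cre GD14.5 IS pair. Along 10 kb bins, 12 of the 27 bins from 220 kb below to 50 kb above the lower end of H2-M1 were lower in cKO in all 6 pairs. Among the other 53 bins within 400 kb of it, 1 was, the bin at H2-M10.6, with 68.4% in cKO and 84.3% in control lists. No share over bins elsewhere in the genome is given, and nothing is read from these counts. The 27 bins were marked out after their values were seen. Inside them, the bins at 90 to 80 kb and 160 to 150 kb below H2-M1 kept coverage in every group, with means of 87.8% in cKO and 98.5% in control lists in the nearer bin, and of 88.2% in cKO and 99.1% in control lists in the farther one.

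**Figure D3:**
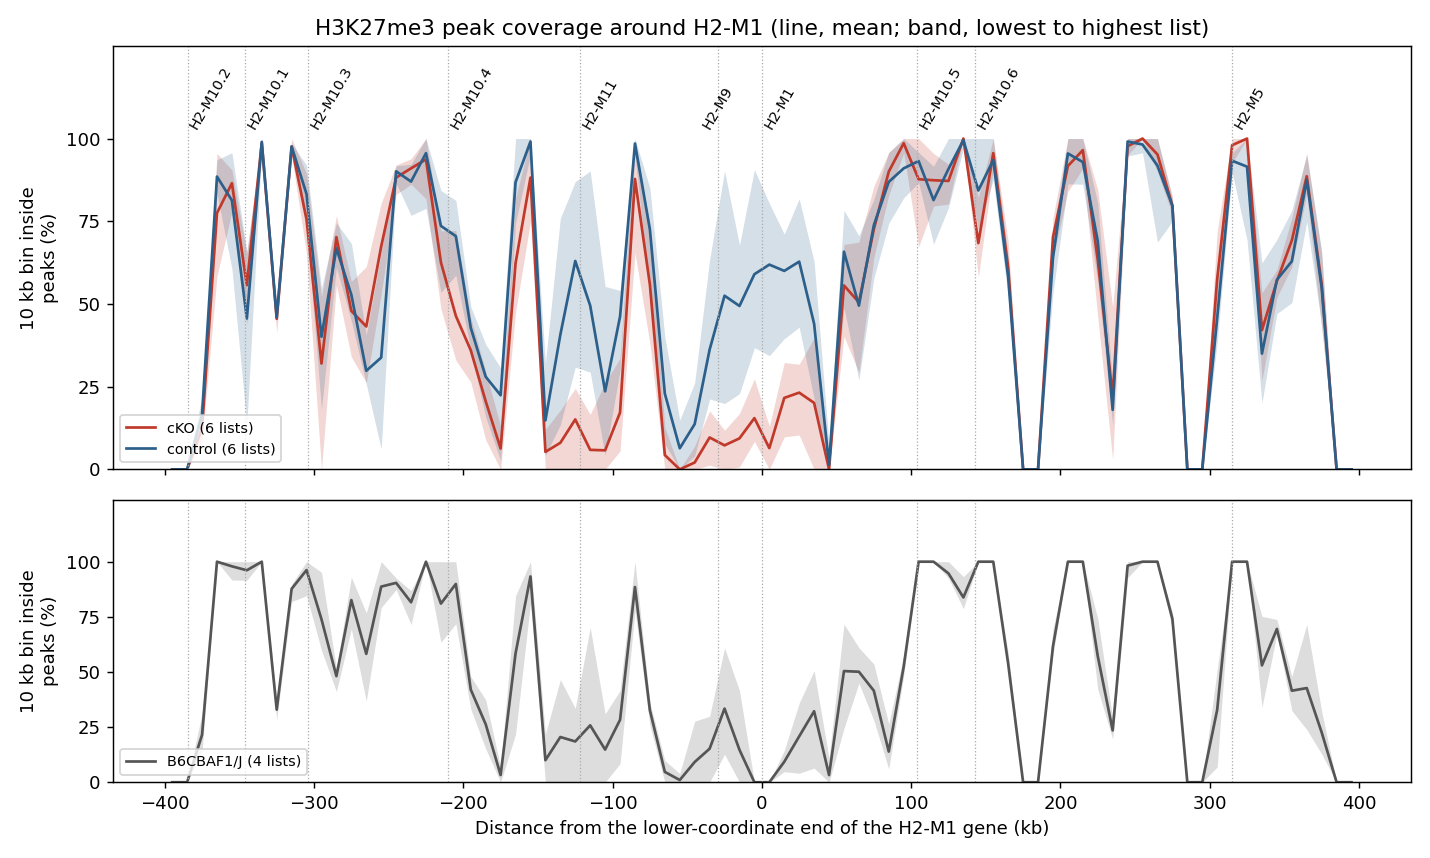
Percent of each 10 kb bin inside H3K27me3 peaks by distance (kb) from the lower-coordinate end of H2-M1, as the mean (line) and the lowest to highest list (band) for cKO in red, control in blue and, in the lower panel, B6CBAF1/J in grey, with dotted lines at H2-M genes. The cKO line stays near the floor around H2-M11, H2-M9 and H2-M1 while the control line lies higher, the bands overlap at H2-M10.5 and H2-M5, and the bin at H2-M10.6 has means of 68.4% in cKO and 84.3% in control lists.

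The 6 pairs were not alike in how far H2-M genes differed. By differences of at least 50 points, with 1 list a side and no test, the GD5.5 IIS pair had 0 of 35 members lower, where 0.234% of all genes were, although H2-M1 was just outside at -49.4 points. In GD8.5 IIS there were 2, H2-M11 and H2-M1, where 0.629% of all genes were that much lower. In GD14.5 IIS there were 3, H2-M11, H2-M9 and H2-M1, where 1.08% of all genes were. The same 3 genes passed in GD14.5 IS, where 0.955% of all genes did. In GD18.5 IS there were 4, H2-M10.4 having joined them at -52.4 points, where 0.721% of all genes passed. In Pdgfra-Cre GD14.5 IS there were 0 of 35, where 0.142% of all genes were, and H2-M1 was just outside at -47.6 points. The only member higher by 50 points was H2-M10.1 in the Pdgfra-Cre pair, at 63.5 points, where 0.225% of all genes were. In the other 5 pairs no member was higher by 50 points, where 0.0873% of all genes were in GD5.5 IIS, 0.175% in GD8.5 IIS, 0.106% in GD14.5 IIS, 0.22% in GD14.5 IS and 0.0919% in GD18.5 IS. Control coverage of H2-M1, H2-M11 and H2-M9 was highest in the GD18.5 IS list, at 94.5%, 85.8% and 89.3%.

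In the B6CBAF1/J lists the H2-M genes were described on their own, since these lists were called separately. H2-M1 had no peak in any of the 4 lists. H2-M11 had 24.2% after natural mating, 11.6% after vasectomized mating, 0% after progesterone and 35.8% in GD0.5 uterus. H2-M9 had 9.69%, 58.3%, 6.74% and 54.7% in the same order. Thus H2-M9 was high in the vasectomized and GD0.5 lists and low in the natural and progesterone lists, with differences of -45 points for natural against GD0.5, -47.9 for progesterone against GD0.5 and -48.6 for natural against vasectomized mating. No member reached 50 points in either direction in natural mating against GD0.5, where 0.239% of all genes were lower and 0.303% higher. None did in vasectomized mating against GD0.5 (0.271% lower and 0.276% higher), progesterone against GD0.5 (0.657% and 0.4%) or natural against vasectomized mating (0.119% and 0.0735%). The first 3 comparisons share the GD0.5 list. H2-M10.4, H2-M10.5 and H2-M10.6 were covered by 80.1% to 100% in these lists, while H2-M1 had none.

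Most class II genes lay in broad domains. Of the genes of class I peptide supply between them, Psmb9 was covered in part, Tap1 was little covered, and Psmb8 and Tap2 had no peak. H2-Oa, at chr17:34092379-34095234, encodes the alpha chain of the H2-O molecule that inhibits peptide exchange. It was covered by 100% in all 16 lists under a single peak. That peak was 31971 to 33555 bp wide in cKO lists and 32280 to 34122 bp wide in control lists, and its upper end varied by 1025 bp among cKO lists and by 229 bp among control lists. Its fold was 1.82 to 1.98 in cKO and 1.96 to 2.04 in control lists. It reached a -log10 q of 2 in 0 of 6 cKO lists, against 5 of 6 control lists, and the smaller number of such peaks in 5 of the 6 cKO lists moved with this count, its part not being tested.

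H2-DMa, H2-DMb2 and H2-DMb1 encode the chains of the H2-DM peptide editor, and they lay in or at the edge of a shared peak of up to 48191 bp in cKO and 47528 bp in control lists. H2-DMb2 was covered by 100% in all lists, and H2-DMb1 by 92.7% to 100% in the 12 Kdm6b lists. H2-DMa was covered only in part, by 27% in cKO and 23% in control lists, with a difference of 3.92 ± 3.35 points. The same peak carried all 3 genes, so their values are not independent.

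The genes of class I peptide supply followed next along the chromosome. Psmb9, an immunoproteasome subunit, averaged 47.1% in cKO and 35.8% in control lists. Tap1, a chain of the peptide transporter, averaged 6.81% in cKO and 3.11% in control lists. Psmb8 and Tap2, the other immunoproteasome subunit and the other transporter chain of this cluster, had no peak in any list. Beyond them the mark resumed at H2-Ob, the beta chain of H2-O, with 87.1% in cKO and 85.8% in control lists, a difference of 1.35 points, or 3.15 without the Pgr-Cre GD14.5 IS pair.

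H2-Ab1 and H2-Aa encode the beta and alpha chains of I-A, the main class II molecule. H2-Ab1 was covered by 100% in all 12 Kdm6b lists. The highest H2-Ab1 peak ended between 34273605 and 34289055 in cKO lists and between 34272067 and 34286541 in control lists. That peak stopped short of H2-Aa, at chr17:34282744-34287823, in some lists. In others it reached into the gene, and the farthest cKO peak ended beyond it. H2-Aa had the largest class II difference. Its coverage was 82.6%, 91.5%, 73.0%, 58.9%, 75.9% and 91.6% in cKO lists from GD5.5 IIS to Pdgfra-Cre GD14.5 IS, against 55.3%, 63.9%, 51.3%, 65.2%, 73.5% and 60.5% in control lists. The cKO list was higher in 5 pairs and lower in GD14.5 IS, and the 2 ranges overlapped. The means were 78.9% in cKO and 61.6% in control lists, a difference of 17.3 ± 15.5 points that was not called. It was called at 22.1 points without the GD14.5 IS pair and at 15.2 points with 5 kb flanks. The start site of H2-Aa lay inside a peak in 3 of 6 cKO and 1 of 6 control lists. The I-E genes lie next along the chromosome. H2-Eb1, the I-E beta chain, had 7.44% in cKO and 7.39% in control lists, with a difference of -0.628 points without the Pgr-Cre GD14.5 IS pair, and the adjoining H2-Eb2 had 92.1% in cKO and 95.3% in control lists. Over the 249.0 kb from H2-Oa to H2-Eb2 the coverage was 54.2% in cKO and 51.4% in control lists, a difference of 2.75 ± 1.97 points with 6 of 6 pairs higher. The GD14.5 IIS pair was nearly level, with 52.9% in cKO and 52.8% in control. In the other pairs the cKO list also covered more of the genome, and the part of this in the difference was not tested. In the B6CBAF1/J lists this stretch was covered by 51.6% to 52.1%.

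The classical class I genes had little coverage in the Kdm6b lists. H2-K1, at chr17:33996012-34000619, had 0% to 12.9% in cKO and 0% to 14.8% in control lists, with means of 4.76% in cKO and 4.43% in control lists. The difference of 0.327 points became -2.19 without the Pgr-Cre GD14.5 IS pair and -0.871 at equal covered length. Its B6CBAF1/J values were 2.06% after natural mating, 11.5% after vasectomized mating, 22.9% after progesterone and 26% in GD0.5 uterus. H2-D1, at chr17:35263094-35267497, had peaks only in the cKO lists of GD14.5 IIS, with 13.7%, and of GD14.5 IS, with 11.9%, and 0% in all control lists, a mean difference of 4.27 points, or 2.74 without the Pgr-Cre GD14.5 IS pair. Those peaks had a fold of at most 1.09. Neither start site lay in a peak in any list.

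The H2-Q genes lie directly after H2-D1, with no other protein-coding gene starting between H2-D1 and H2-Q10, and all but H2-Q4 were covered. H2-Q6, a gene of the Qa-2 family at chr17:35424850-35430055, had the highest peaks of the 35 members, with a fold of 2.35 to 2.52 in cKO and 2.43 to 2.6 in control lists. Its peak passed a -log10 q of 2 in 6 of 6 cKO and 6 of 6 control lists, and its lower edge varied by 168 bp among cKO and by 93 bp among control lists. Coverage of H2-Q6 was 86.3% to 93.6% in cKO and 86.2% to 92.2% in control lists. H2-Q7, a near copy of H2-Q6, averaged 76.4% in cKO and 76.8% in control lists, a difference of -0.446 points, or -1.01 without the Pgr-Cre GD14.5 IS pair. The highest H2-Q6 peak ended by 35427423 in cKO and 35427336 in control lists, below the H2-Q7 gene at 35439140. The peak that the 2 windows shared was another, of up to 13839 bp in cKO and 13811 bp in control lists. H2-Q10, which encodes a class I molecule secreted by the liver, averaged 97.6% in cKO and 96.6% in control lists. H2-Q1 had 97.5% in cKO and 93.5% in control lists, and H2-Q2 had 99.0% and 99.1%. H2-Q4 had no peak in any list, between covered neighbours on both sides. The median H2-Q difference was 0.507 points.

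**Figure D4:**
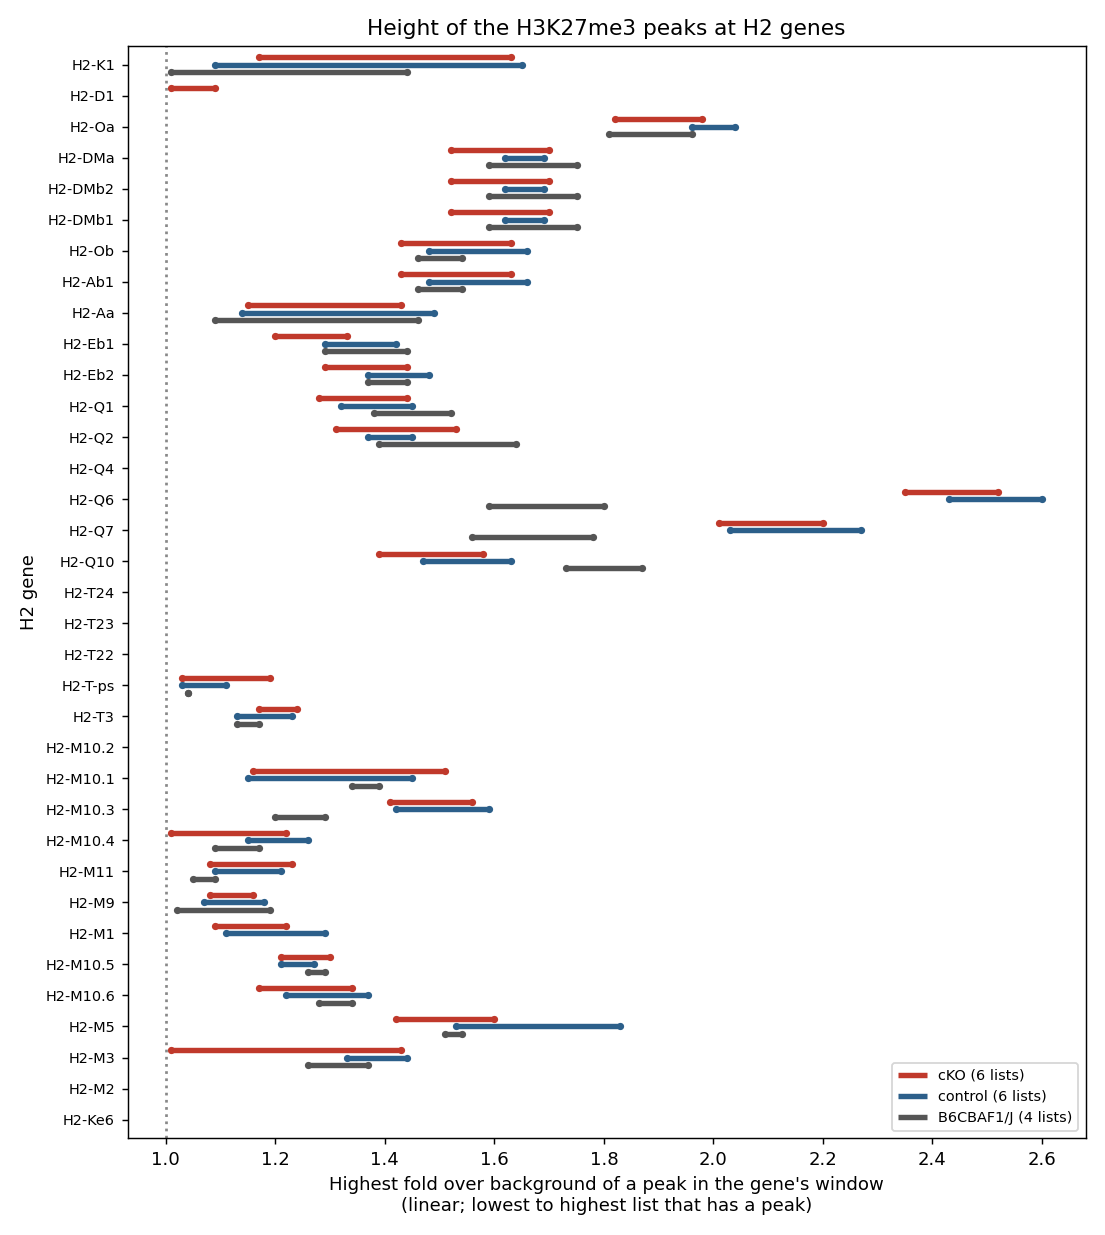
Highest fold over background of a peak in each gene's window (linear axis, from the lowest to the highest list with a peak) for cKO in red, control in blue and B6CBAF1/J in grey. H2-Q6 and H2-Q7 reach 2.01 or more in the Kdm6b lists, H2-Oa reaches 1.82 or more, and H2-M1, H2-M9 and H2-M11 stay at 1.29 or below.

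The promoters of H2-D1 and H2-Q6 are shown because they were alike in letters and opposite in coverage, with the start site of H2-Q6 inside a peak in all 12 Kdm6b lists and that of H2-D1 in none. Capitals mark the same motifs as above.
H2-D1 (chr17:35262844-35263143, plus strand): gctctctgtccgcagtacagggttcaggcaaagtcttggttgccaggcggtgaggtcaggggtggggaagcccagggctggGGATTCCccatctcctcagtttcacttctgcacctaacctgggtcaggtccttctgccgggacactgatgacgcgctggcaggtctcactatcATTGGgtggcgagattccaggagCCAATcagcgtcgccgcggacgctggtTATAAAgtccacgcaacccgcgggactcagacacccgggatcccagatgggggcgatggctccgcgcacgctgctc
H2-Q6 (chr17:35424600-35424899, plus strand): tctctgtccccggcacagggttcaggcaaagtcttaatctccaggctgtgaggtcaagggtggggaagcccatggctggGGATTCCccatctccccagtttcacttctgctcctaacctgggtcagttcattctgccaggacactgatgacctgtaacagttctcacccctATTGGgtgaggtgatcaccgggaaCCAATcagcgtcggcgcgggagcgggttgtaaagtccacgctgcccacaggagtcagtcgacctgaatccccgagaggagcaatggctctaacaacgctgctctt
They had 81.5% identity over 297 aligned bases. Both held the kappa-B core, found in 3.86% of all promoters, and a CCAAT on each strand, and only H2-D1 held TATAAA. H2-D1 had 19 CpG dinucleotides and H2-Q6 had 11. H2-Q6 and H2-Q7 had 97.7% identity over 260 bases, so reads may be shared between them. Among the 32 members with a promoter sequence, CCAAT was found in 87.5%, and TATAAA in 66.7% of H2-M genes and 0% of class II genes. CpG count alone did not order the members. Of the 10 members with more CpG than the median promoter, 5 had a mean coverage under 5% and 3, H2-Q6, H2-Q7 and H2-Q10, had over 50%. Of the 22 at or below that median, 3 were under 5% and 13 at 50% or more. H2-DMa had the most CpG, at 29, and 25% coverage.

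**Figure D5:**
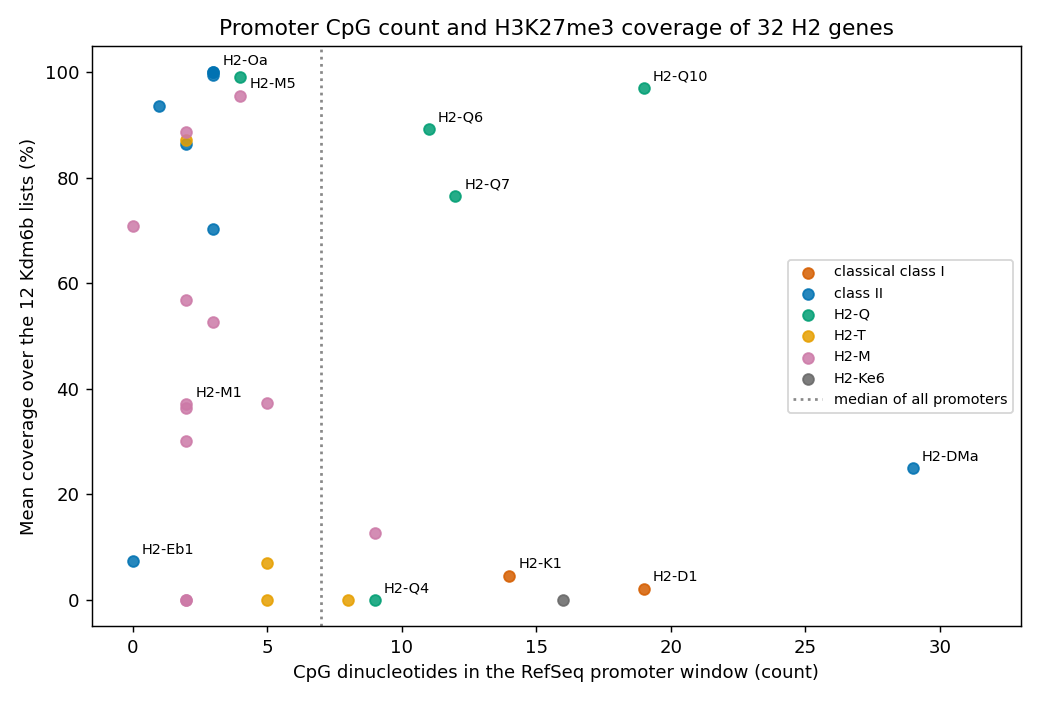
Number of CpG dinucleotides in the RefSeq promoter window against the mean coverage (%) over the 12 Kdm6b lists for 32 H2 genes, coloured by group, with a dotted line at the median of all promoters (7). H2-Q6, H2-Q7 and H2-Q10 sit high with many CpG, H2-K1 and H2-D1 sit low with many, and the other well-covered genes have few.

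Of the 5 H2-T genes, 3 were free of the mark in all lists and 1 was widely covered. H2-T23, which encodes Qa-1, a ligand of inhibitory NK cell receptors, and H2-T22, a ligand of gamma delta T cells, had no peak in any list, and neither had H2-T24. H2-T3, the thymus leukemia antigen of intestinal epithelium, was covered by 77.6% to 100% in cKO and 82.2% to 100% in control lists, with means of 84.2% in cKO and 90.2% in control lists and a difference of -5.98 ± 13.9 points. That difference was -2.74 points without the Pgr-Cre GD14.5 IS pair, -18.7 at equal covered length and 23.8 with only peaks of -log10 p of at least 1. H2-T-ps averaged 9.15% in cKO and 4.86% in control lists, a difference of 4.29 points, or -1.31 without the Pgr-Cre GD14.5 IS pair. The median H2-T difference was 0.

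Genes that work with H2 molecules were set beside them. None of the 9 tested genes among 12 class I presentation genes, 6 class II presentation genes and 8 class I-like genes outside chromosome 17 was called in the limma fit, while 3 had an unadjusted p under 0.05, beside 32.7% of all tested genes. Of the 26 genes, 12 had no peak in any of the 12 Kdm6b lists, among them Cd74, the class II invariant chain, and Tapbp, the tapasin of class I loading. Over all protein-coding genes, 7094 of 21774 had none in those lists. B2m, the light chain of class I molecules, averaged 3.1% in cKO and 0.608% in control lists. Ciita, the master activator of class II genes, was covered by 53.3% in cKO and 54.9% in control lists, a difference of -1.64 ± 1.91 points. Ctss, a protease that trims the invariant chain, had 70.3% in cKO and 80.3% in control lists, lower in 5 of 6 pairs.

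The vomeronasal genes lie among 134 other protein-coding genes between H2-K1 and H2-M2. Of 54 of these that were tested, 1 was called lower and 4 higher in the same limma fit. The shares over all tested genes were 8.44% lower and 8.67% higher. The median difference of the 134 genes was 0. Among them, 16 olfactory receptor genes, expressed like the H2-M vomeronasal genes in sensory neurons, had a median coverage of 78.2% in cKO and 81.0% in control lists. Of the 12 tested, 1 was called lower and 2 higher, and nothing is read from such small counts beside those shares. Over the whole 3488 kb from H2-K1 to H2-M2 the coverage was 40.2% in cKO and 41.4% in control lists, a difference of -1.18 ± 2.63 points.

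Most cKO peaks in the H2 windows overlapped a peak in the control list of their pair. Control peaks that met no cKO peak were not counted. By an overlap of at least 1 bp, 85.1% (Pgr-Cre GD14.5 IS) to 95.3% (Pgr-Cre GD18.5 IS) of the cKO peaks in the 35 windows met a control peak, against 60.6% to 71.3% of all cKO peaks. With an overlap of at least 50% of the cKO peak these shares were 76.6% to 88.4% in the windows, against 43.9% to 56.3% of all cKO peaks. The windows held 35 to 47 peaks per cKO list, so that the exact 95% binomial interval ran from 71.7% to 93.8% for the lowest share. The intervals cover counting error only, and wide peaks overlap more readily than narrow ones.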

How the data were processed

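H3K27me3 CUT&RUN of purified mouse uterine fibroblasts was used as broad peak lists. Per the submitters' processing notes, the authors used STAR 2.7.5c, samtools 1.10, bedtools 2.29.1, bedGraphToBigWig 2.8 and Picard with mm10, and called peaks with macs2 2.2.7.1. The deposited lists give each peak's position, its fold over background (a ratio), its -log10 p and its -log10 q, as macs2 wrote them. Each of the 16 lists pools 3 samples, or 48 of 80; the other 32, 20 of them counted as inputs (1 carries the antibody label), are not analysed here. Depth is unknown, so precision comes from the spread over pairs.

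Genes came from the RefSeq annotation of GRCm38.p6 (the mm10 assembly), 113 protein-coding genes taken to lie on patches or alternate scaffolds being left out. Peaks were merged within a list, and coverage is the share, in percent, that they occupy of a window from 2 kb before to 2 kb after a gene, counted from 1. Pairs of cKO and control lists share day, site and Cre line, and their independence is assumed, since p-values measure only the spread between lists. Where mean coverage reached 5%, a gene entered limma 3.58.1 (R 4.3.3) on the 6 paired differences, with Benjamini-Hochberg adjustment over all genes tested and a threshold of 0.05. The procedure was tested on simulated data. Genes that had the same difference in all pairs or lower coverage were not tested.

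The members, gene lists and tests were chosen with earlier results of these data known. Named genes were H2-M1, H2-M11, H2-K1 and H2-D1, in each other group the 3 members with the highest mean and the 2 with the largest difference, and any member past 50 points. Other members were named after their values were seen, to complete each group. H2-T-ps was placed with H2-T by its symbol.

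Alternatives were an equal covered length (the most significant peaks of each list, up to 487.5 Mb, or 544.4 Mb in the B6CBAF1/J set), -log10 q of at least 2, -log10 p of at least 1, 5 kb or no flanks, no filter, an unpaired fit, median subtraction, steps of 25 points and leaving out each pair. Start-site windows, summed counts and the motifs were added after seeing the data, and matches to longer interferon-response and kappa-B motifs, also searched, are not reported. Promoters and motifs came from the RefSeq promoter table (32 of 35 members matched; where a gene had 2 entries the first was used). Alignments used biopython 1.88, and other steps python 3.11.15, numpy 2.4.6, pandas 2.3.3 and matplotlib 3.10.9.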

Additional observations from a re-analysis of the deposited data

Results flagged for a closer look

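Over the 6 pairs, 2 members had a single pair far from the other 5 by Dixon's criterion, which chance alone meets in about 1 of 20 groups, and 25 members were examined. The H2-T-ps difference was 32.3 points in the Pgr-Cre GD14.5 IS pair, with 32.3% in cKO and 0% in control. The H2-DMb1 difference was -7.27 points in the Pgr-Cre GD14.5 IIS pair, with 92.7% in cKO and 100% in control, and it was 0 in the other 5 pairs. Both lists were at 100% in those 5 pairs, so any other value in the remaining pair would have met the criterion. The rate of 1 in 20 does not hold for such tied values, and nothing is read from this flag.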

How the results depend on the processing

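Of the values for single members, 353 stayed within the spread over pairs under the alternatives, 76 moved by more and none changed the sign of a called value. The causes of the changes below were not tested. The 4 members called lower became 0 at equal covered length, 0 with -log10 q of at least 2, 0 with -log10 p of at least 1, 1 without flanks (H2-M1), 3 with 5 kb flanks (without H2-M10.4), 3 in the unpaired fit (H2-M11, H2-M1 and H2-M10.6), 5 with each pair's median subtracted (H2-M10.6 added), and 2 with no filter or in start-site windows (H2-M11 and H2-M1). The shares of all tested genes called lower were 5.03%, 0.412%, 0.577%, 5.97%, 8.61%, 7.31% and 9.42% in the same order, against 8.44%. With no filter the share was 3.81%, and in start-site windows 1.33%. Leaving out each pair gave 2 to 4 lower calls and 0 to 1 higher calls, and 5 kb flanks gave 1 higher call (H2-Aa). Over all tested genes, 3.47% to 8.21% were called lower and 4.65% to 5.92% higher without a pair. With 5 kb flanks 9.05% were called higher. Subtracting each pair's median of all genes gave -0.13 points for the median over all members, over class II and over H2-T, and the class II median was 0.0319 with 5 kb flanks and 0.0437 in start-site windows. Summed over the 6 pairs, losses of at least 50 points were 12, against 6 with -log10 q of at least 2 and 23 with a step of 25 points. At that q threshold H2-M1, H2-M11, H2-M9 and H2-M10.4 differed in no pair, so the 6 losses were of other genes. H2-Oa, which did not differ with all peaks, was lower there in 5 pairs, with a mean of -83.3 points, and H2-M5 in 1 pair. Gains over the 6 pairs were 1, against 0 at equal covered length, 0 with -log10 q of at least 2, 0 with 5 kb flanks, 2 without flanks, 6 in start-site windows and 7 with a step of 25 points. Over the 4 B6CBAF1/J comparisons losses were 0, against 1 at equal covered length, 1 with -log10 q of at least 2, 1 with -log10 p of at least 1, 5 without flanks and 4 with 25 points. Gains were 0, against 5 with either threshold, 1 in start-site windows and 3 with 25 points. These summed counts have no share over all genes beside them, and nothing is read from them. Over all genes the lower calls were 429 of 8527 genes at equal covered length and 41 of 7105 with -log10 p of at least 1, against 831 of 9845, and the higher calls 282 and 53, against 854. Peaks at H2-M1, H2-M9 and H2-M11 have low p and fold values, which limits what a stricter list can show there.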
